A study of Mus musculus with 3 samples.

Results

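The secretory cells of the mouse airway were followed through 9 genes: the secretoglobins Scgb1a1, Scgb3a1 and Scgb3a2, the gel-forming mucin Muc5b, the BPI fold genes Bpifa1 and Bpifb1, the enzymes Cyp2f2 and Cbr2, and Chad. They were chosen by name as genes of airway secretory cells, and all 9 are among the 22954 genes measured in each library. Club cells line the small airways of the mouse, release secretoglobins into the airway fluid and metabolise inhaled compounds through cytochrome P450 enzymes. Mucins and BPI fold proteins form part of the mucus layer that traps particles and microbes, and the cilia of the neighbouring ciliated cells move this layer.

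Whole lungs of wild-type female C57BL/6J mice were dissociated 5 months after irradiation of the thorax with 13 Gy, and single cells were measured by 10x Genomics 3′ RNA sequencing. The mouse named CONV received the dose at a conventional dose rate. The mouse named CONV AsiDNA received the same irradiation together with AsiDNA, a short DNA molecule that mimics a double-strand break and activates the repair kinase DNA-PK, injected at 100 mg/kg on the days before and at 200 mg/kg on the day of irradiation. The mouse named FLASH received the dose at an ultra-high dose rate without AsiDNA. There was 1 mouse and 1 library per group and a non-irradiated lung was not analysed here, so every difference below lies between 2 libraries, has no replicate check and carries no p-value.

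The 3 libraries held 6372, 6983 and 6267 cells (CONV, CONV AsiDNA, FLASH, the order used for all triplets below), of which 6371, 6981 and 6267 were kept. The deposited values, once the logarithm is undone, are whole numbers that were already adjusted between cells, and they are called adjusted counts here; the median cell held 3450, 3678 and 3621 of them. Barcodes shared between any 2 libraries numbered 9 to 17, and none was shared among club cells. FLASH stood apart in Gm42418, which was above 0 in 0.345% of its B cells against 99.3% and 99.8% in CONV and CONV AsiDNA. It also had the highest median mitochondrial share, with 1.35% of a cell's adjusted counts against 0.628% and 0.180%, and in club cells the medians were 0.197%, 0.757% and 1.87%. The part of either in the differences below was not tested.

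Each cell took the class of the marker list with the most genes above 0. None of the 9 genes was in any list, so their levels did not decide the class. The club list gave 77 cells in CONV, or 1.21% of its cells (0.955 to 1.51 by the 95% exact Clopper-Pearson method). It gave 157 cells in CONV AsiDNA (2.25%, 1.91 to 2.62) and 78 cells in FLASH (1.24%, 0.985 to 1.55). These intervals, like all below, cover the sampling of cells and not the difference between mice. Club cells had a median of 5 of the 10 club markers above 0. The tight junction gene Cldn10 was above 0 in 84.4%, 93.0% and 93.6% of them, whereas Krt15 was found in at most 5.73%. All 10 ciliated markers were at 0 in every club cell of CONV and CONV AsiDNA, and 1 FLASH club cell held 5 of them. Of the alveolar type 1 markers, Aqp5 was above 0 in 64.9%, 68.8% and 64.1% of club cells and Lmo7 in 22.1%, 39.5% and 23.1%. Clic5 (31.2%, 35.7% and 11.5%) and Hopx (21, 44 and 4 cells, the last 5.13%) were less frequent in FLASH. Ager, which defines that cell type, was above 0 in 1, 1 and 0 of them. Pdpn was above 0 in 3, 12 and 3 club cells, and Rtkn2, Akap5, Spock2 and Igfbp2 in none. Of the alveolar type 2 markers, Chil1 was above 0 in 55.8%, 38.9% and 35.9% of club cells and Abca3 in 31.2%, 35.0% and 16.7%. The other 8 were at 0 in every club cell of CONV and CONV AsiDNA, and in FLASH S100g was above 0 in 4 cells and Sftpc in 1. At least 3 markers of a second list, nearly always the alveolar type 1 list, were found in 13, 41 and 7 club cells.

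The genes lie on 5 chromosomes (GRCm38, GENCODE M21), and all are protein coding. Scgb1a1 occupies chr19:9083636-9087958 on the minus strand, Scgb3a1 chr11:49663610-49665118 on the plus strand and Muc5b chr7:141839070-141873084 on the plus strand. Bpifa1 (chr2:154142880-154149219) and Bpifb1 (chr2:154190818-154220369) lie 41.6 kb apart, both on the plus strand. Cyp2f2 (chr7:27119909-27133660, plus) overlaps the antisense gene Gm15883 over 45.0% of its length. Cbr2 occupies chr11:120729489-120732114 on the minus strand. Chad (chr11:94565047-94569127, plus) lies wholly inside Acsf2, which is read from the other strand. Whether the counting kept the strands apart was not given in the sources used here.

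Promoters were available from RefSeq (GRCm38.p6, 250 bases before to 50 after the start) for 6 of the 9 genes. They were searched on both strands for a forkhead motif (TGTTTAC), a C/EBP motif (TTGCNNAA), an NKX2-1 motif (CAAGTG) and the TATA motif (TATAAA), which do not overlap each other here. The first pair of motifs was in none of the 6, against 3.65% and 10.8% of all 32851 promoters of the same length. The NKX2-1 letters were in 2 of the 6 (13.6% of all promoters), starting 174 bases before the Scgb3a1 start, where they read as the reverse complement, and 191 bases before the Cyp2f2 start. The TATA letters were in 2 of the 6 (13.6% of all promoters), starting 29 bases before the Bpifa1 start and 28 bases before the Chad start. The promoters with a match are given below because most club cells with Bpifa1 also held Scgb3a1 and Chad, though many with Chad held neither, while Cyp2f2 was found in almost every club and ciliated cell. They span chr11:49663345-49663644, chr2:154142630-154142929, chr11:94564797-94565096 and chr7:27119705-27120004, all on the plus strand and written 5′ to 3′ with the matched letters in capitals. A match is a run of letters and not a measured binding site.
Scgb3a1: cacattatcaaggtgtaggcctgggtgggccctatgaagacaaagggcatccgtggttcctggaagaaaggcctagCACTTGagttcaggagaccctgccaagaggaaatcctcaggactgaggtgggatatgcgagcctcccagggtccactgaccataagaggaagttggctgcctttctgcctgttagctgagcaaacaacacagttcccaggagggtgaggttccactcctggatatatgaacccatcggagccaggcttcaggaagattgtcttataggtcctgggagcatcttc
Bpifa1: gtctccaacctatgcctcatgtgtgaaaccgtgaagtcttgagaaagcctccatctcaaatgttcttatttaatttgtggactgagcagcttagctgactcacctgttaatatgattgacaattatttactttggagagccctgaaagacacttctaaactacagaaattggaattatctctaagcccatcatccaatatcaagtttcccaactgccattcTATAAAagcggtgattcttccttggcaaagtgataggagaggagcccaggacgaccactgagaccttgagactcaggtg
Chad: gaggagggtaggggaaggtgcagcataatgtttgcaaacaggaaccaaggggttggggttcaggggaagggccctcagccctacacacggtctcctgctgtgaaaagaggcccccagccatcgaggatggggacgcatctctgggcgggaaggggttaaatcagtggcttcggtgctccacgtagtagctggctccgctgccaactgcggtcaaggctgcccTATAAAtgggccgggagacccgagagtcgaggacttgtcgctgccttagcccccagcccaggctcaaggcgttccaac
Cyp2f2: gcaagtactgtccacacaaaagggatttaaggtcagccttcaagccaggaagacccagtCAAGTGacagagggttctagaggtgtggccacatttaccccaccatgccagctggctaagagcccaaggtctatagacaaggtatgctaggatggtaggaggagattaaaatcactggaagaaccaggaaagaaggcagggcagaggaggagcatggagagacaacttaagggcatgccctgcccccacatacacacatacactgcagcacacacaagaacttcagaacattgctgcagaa

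Scgb1a1, the main secreted protein of club cells, was above 0 in every club cell of every library. Its median was 3543, 3507 and 3604.5 adjusted counts, with single cells between 47 and 5420 (CONV), 276 and 5367 (CONV AsiDNA), and 169 and 5055 (FLASH). The ranges of the 3 libraries overlapped over nearly their whole width. Scgb1a1 took a median of 65.9%, 66.9% and 64.6% of the adjusted counts of a club cell, and more than 50% of them in 53 of 77, 125 of 157 and 66 of 78 club cells. In the summed club cells it made up 614437, 645826 and 632865 adjusted counts per 1000000 (CPM). The log2 ratios of the libraries were -0.07 (CONV to CONV AsiDNA), -0.04 (CONV to FLASH) and 0.03 (CONV AsiDNA to FLASH). All 9 genes together took 68.2%, 71.2% and 70.1% of the summed adjusted counts.

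**Figure D1:**
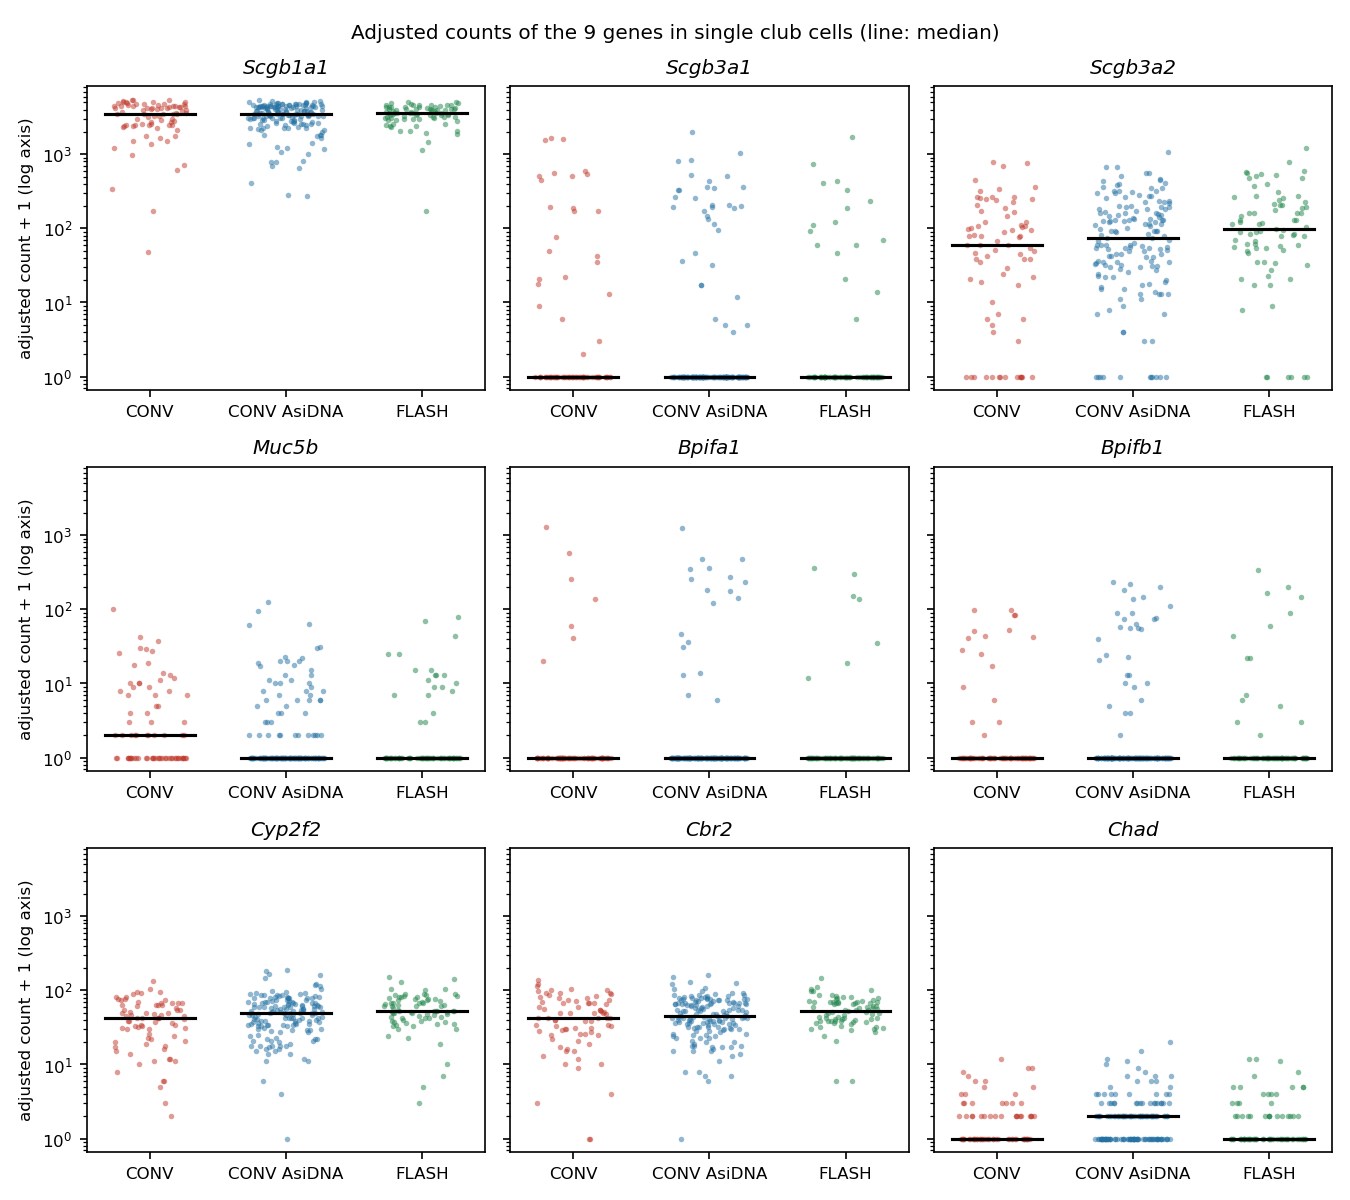
Adjusted counts plus 1 (log axis) of the 9 genes in single club cells of CONV (77 cells), CONV AsiDNA (157) and FLASH (78), 1 point per cell with the median as a line; points at 1 are cells listed at 0. Scgb1a1, Cyp2f2 and Cbr2 filled nearly every cell, whereas Scgb3a1, Bpifa1 and Bpifb1 were present in a minority with values up to 1965, 1291 and 338.

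Scgb3a1, a secretoglobin of the larger airways, was found in a minority of club cells. It was above 0 in 25 of 77 cells of CONV (32.5%, 22.2 to 44.1), 35 of 157 of CONV AsiDNA (22.3%, 16.05 to 29.6) and 17 of 78 of FLASH (21.8%, 13.2 to 32.6), and the intervals overlapped. Among the cells above 0 the lowest value, the median and the highest were 1, 170 and 1643 in the CONV library, 3, 194 and 1965 with AsiDNA, and 5, 110 and 1685 after FLASH. In CONV 3 cells stood above the rest with 1573, 1623 and 1643, followed by 600, whereas in CONV AsiDNA and FLASH a single cell did so, followed by 1044 and 727. The summed level was 21394, 12571 and 10605 adjusted CPM. On the log2 scale CONV lay 1.01 above FLASH and 0.77 above CONV AsiDNA.

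Scgb3a2, a secretoglobin of the bronchioles, was found in most club cells. It was above 0 in 63 of 77 cells of CONV (81.8%, 71.4 to 89.7), 146 of 157 of CONV AsiDNA (93.0%, 87.8 to 96.5) and 72 of 78 of FLASH (92.3%, 84.0 to 97.1). Over all club cells the median was 58, 72 and 96 adjusted counts and the highest value 778, 1066 and 1222. The medians and the summed levels (21277, 24730 and 31389 adjusted CPM) were lowest in CONV and highest in FLASH, with a log2 ratio of -0.56 between CONV and FLASH, under 2-fold and with widely overlapping cells. Cells with Scgb3a1 held more Scgb3a2 than cells without it in each of the 3 libraries: the medians were 223 against 38 in CONV, 283 against 51 in CONV AsiDNA and 471 against 80 in FLASH. Scgb1a1 went the other way, with medians of 3230 against 3687.5, 3298 against 3595 and 3127 against 3690.

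Muc5b, the gel-forming mucin of the healthy airway, was above 0 in 41 of 77 club cells of CONV (53.2%, 41.5 to 64.7), 53 of 157 of CONV AsiDNA (33.8%, 26.4 to 41.7) and 20 of 78 of FLASH (25.6%, 16.4 to 36.8). The median of the cells above 0 was 6, 6 and 11 adjusted counts and the highest value 101, 125 and 77. Asking for a value of at least 5 gave shares of 29.9%, 21.0% and 21.8%. With each cell thinned to 1000 adjusted counts, which left out no club cell, the shares were 29.9%, 24.8% and 23.1%, with overlapping intervals. The summed levels were 1126, 896 and 835 adjusted CPM, all within 2-fold of each other. Without the club cells of a second marker list, the log2 ratio of CONV to CONV AsiDNA was 1.54 in place of 0.33 and that of CONV AsiDNA to FLASH was -0.91 in place of 0.10.

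Bpifa1 and Bpifb1, secreted proteins with a lipid-binding BPI fold and a role in airway defence, were found in fewer club cells. Bpifa1 was above 0 in 7 of 77, 19 of 157 and 7 of 78 club cells. The 7 cells of CONV held 1291, 569, 252, 136, 59, 40 and 19 adjusted counts, and the 7 cells of FLASH held 363, 298, 150, 136, 34, 18 and 11. The 19 cells of CONV AsiDNA ran from 5 over a median of 175 to 1247. The single highest cell of CONV thus gave 1291 of its sum of 2366. The summed level was 5634, 5381 and 2337 adjusted CPM, with log2 ratios of 1.27 (CONV to FLASH) and 1.20 (CONV AsiDNA to FLASH). The ratio of CONV AsiDNA to FLASH was past 2-fold under 13 of 13 alternatives, whereas that of CONV to FLASH was -0.32 without the club cells of a second marker list and 0.78 without the highest cell of each library. Bpifb1 was above 0 in 17 cells (22.1%), 31 cells (19.7%) and 15 cells (19.2%), with highest values of 97, 231 and 338. Its summed level was 1598, 2519 and 2552 adjusted CPM, so that FLASH was not the lower library for this gene.

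Cyp2f2, the club cell cytochrome P450 that activates naphthalene, was above 0 in 77 of 77, 156 of 157 and 78 of 78 club cells, with medians of 42, 49 and 52 adjusted counts. Cbr2, a carbonyl reductase of the lung, was above 0 in 75, 156 and 78 club cells with medians of 42, 44 and 52. The middle 50% of the cells ran from 21 to 62 for Cyp2f2 and from 25 to 69 for Cbr2 in CONV, and from 39.5 to 75.25 and 38 to 69 in FLASH. Summed levels were lowest in CONV for both genes (7888, 10047 and 10390 adjusted CPM for Cyp2f2, and 8886, 9451 and 9939 for Cbr2), and the log2 ratio farthest from 0 was -0.40, for Cyp2f2 between CONV and FLASH.

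Chad encodes chondroadherin, a leucine-rich repeat matrix protein first known from cartilage. It was above 0 in 37 of 77 (48.1%), 88 of 157 (56.1%) and 33 of 78 (42.3%) club cells, with overlapping intervals. Its values were low, with a median of 2, 1 and 2 adjusted counts in the cells above 0 and a highest value of 11, 19 and 11. The summed level was 236, 276 and 231 adjusted CPM.

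Read over all genes, the club cells of the libraries differed in part. A gene was called where the adjusted CPM plus 10 differed at least 2-fold between the summed club cells of 2 libraries, among genes with at least 20 adjusted counts in the pair. Of 2110 genes 9.48% were called between CONV and CONV AsiDNA, of 1435 genes 19.8% between CONV and FLASH, and of 1988 genes 11.8% between CONV AsiDNA and FLASH. All 9 secretory genes entered each comparison. None was called between CONV and CONV AsiDNA, 2 of 9 between CONV and FLASH (Scgb3a1 and Bpifa1, both higher in CONV) and 1 of 9 between CONV AsiDNA and FLASH (Bpifa1, higher in CONV AsiDNA). These counts lie near the share of all genes and single out nothing about the 9. The median log2 ratio of the 9 was -0.09, -0.04 and 0.03, beside 0.02, 0.04 and 0.11 over all genes tested. Scgb3a1 stood at the threshold, and Bpifa1 rested on few cells. Without the club cells that carried a second marker list, the log2 ratio of CONV to CONV AsiDNA was 1.40 for Scgb3a1 and -1.57 for Bpifa1, and that of CONV AsiDNA to FLASH turned from 0.25 to -0.41 for Scgb3a1.

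**Figure D2:**
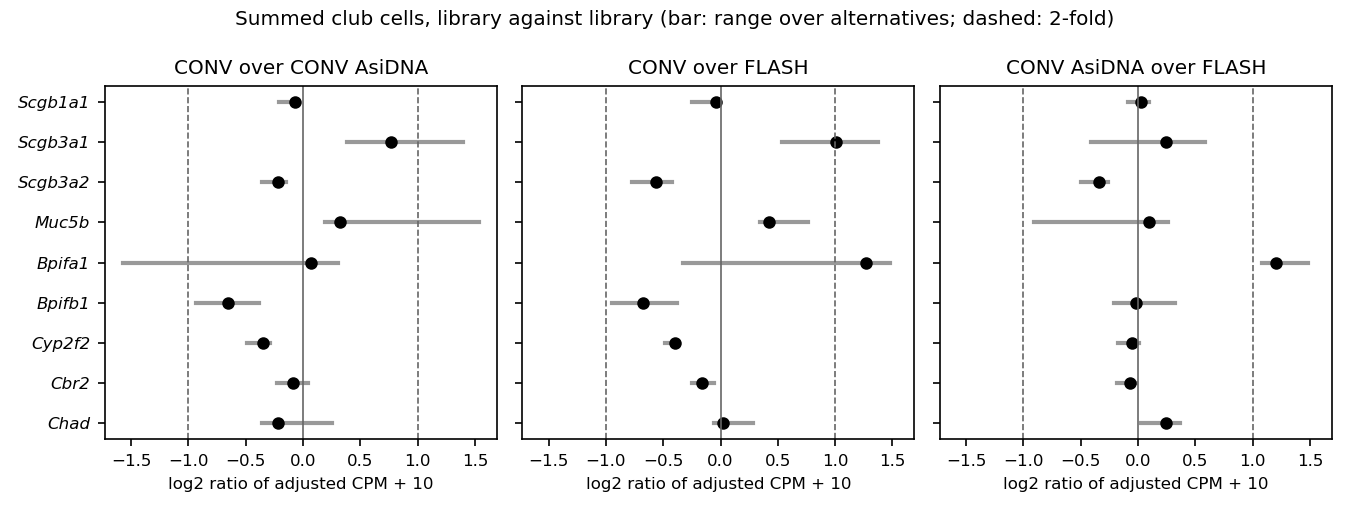
log2 ratios of adjusted CPM plus 10 in summed club cells for each pair of libraries (points), with the range over 13 alternative gates, scalings and filters (bars) and 2-fold marked by dashed lines. For CONV over FLASH, Bpifa1 ran from -0.32 to 1.48 and Scgb3a1 from 0.53 to 1.38, whereas Scgb1a1 stayed between -0.25 and -0.02.

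The less frequent genes met in the same club cells. All 7 of 7 and 19 of 19 cells with Bpifa1 also held Bpifb1 in CONV and CONV AsiDNA, and 6 of 7 did in FLASH. Of the cells with Bpifb1, 15 of 17, 27 of 31 and 14 of 15 also held Scgb3a1, whereas Bpifb1 was above 0 in 2 of 52, 4 of 122 and 1 of 61 club cells without Scgb3a1. Muc5b was present in 22 of 25, 33 of 35 and 15 of 17 cells with Scgb3a1, and in 19 of 52, 20 of 122 and 5 of 61 cells without it. Chad was present in 19 of 25, 33 of 35 and 15 of 17 cells with Scgb3a1, and in 18 of 52, 55 of 122 and 18 of 61 without it. Chad thus reached further than Scgb3a1, which was present in 19 of 37, 33 of 88 and 15 of 33 club cells with Chad. In each library nearly all cells with Bpifa1 thus lay within those with Bpifb1, and most of these within those with Scgb3a1. Cells with Scgb3a1 held a median of 5762, 5750 and 5969 adjusted counts and cells without it 5511.5, 5269 and 5552, and the part of this difference in totals in the numbers above was not tested.

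**Figure D3:**
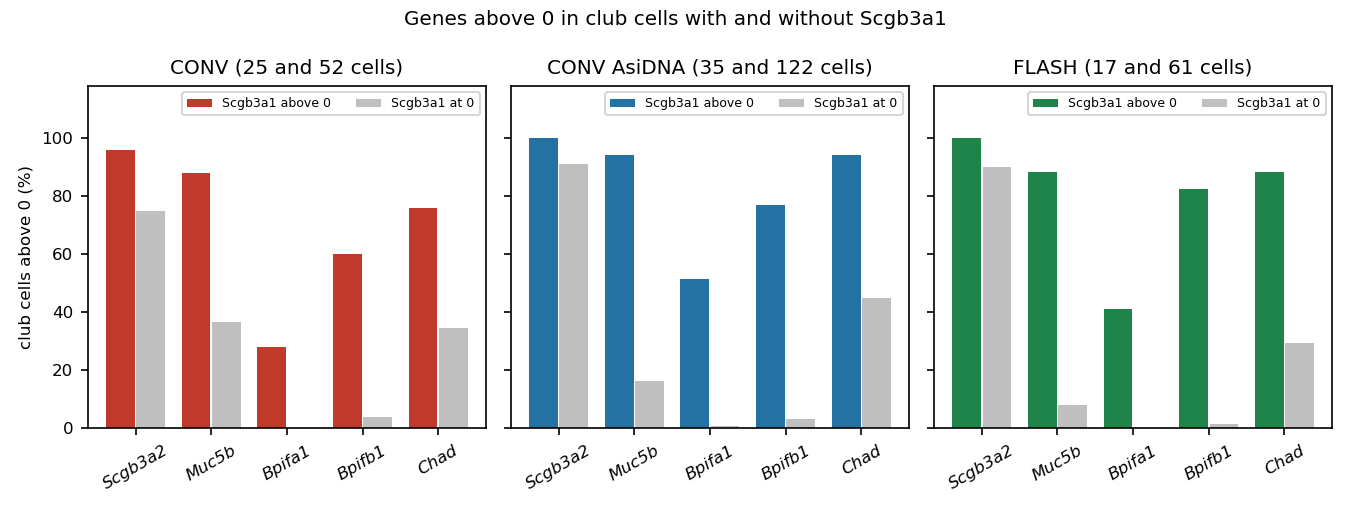
Percentage of club cells above 0 for 5 genes, split into cells with Scgb3a1 above 0 (coloured bars, 25, 35 and 17 cells) and at 0 (grey bars, 52, 122 and 61 cells) in each library. Bpifb1 was present in 60.0%, 77.1% and 82.4% of the first kind and in 3.85%, 3.28% and 1.64% of the second.

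As a description across club cells of 1 library, which share their library and differ in their totals, the Spearman correlation of Scgb3a1 with Bpifb1 was 0.71, 0.80 and 0.88 (77, 157 and 78 cells), and with Muc5b it was 0.54, 0.77 and 0.78. The pair of enzymes followed each other (0.38, 0.41 and 0.47) but not Scgb3a1, with which Cyp2f2 had -0.11, -0.03 and -0.07 and Cbr2 -0.22, -0.23 and -0.15. Between 3 and 9 of the genes were above 0 in a club cell, and all 9 in 6, 16 and 6 cells.

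Outside the club cells the 9 genes behaved in different ways. Of the summed Scgb1a1 of a library, 88.1%, 83.4% and 70.4% lay in club cells, and of Scgb3a1 91.3%, 89.2% and 96.4%. Cbr2 had only 24.4%, 29.8% and 22.2% of its sum there. B cells, which should lack these genes, had all 9 listed at 0 in all 1346, 1603 and 1160 cells, at a median of 2830, 2964 and 3044 adjusted counts. The lowest value of Scgb1a1 above 0 in any cell was 47, 63 and 41. A 0 may result from the adjustment, so the zeros of B cells do not show a lack of free RNA.

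**Figure D4:**
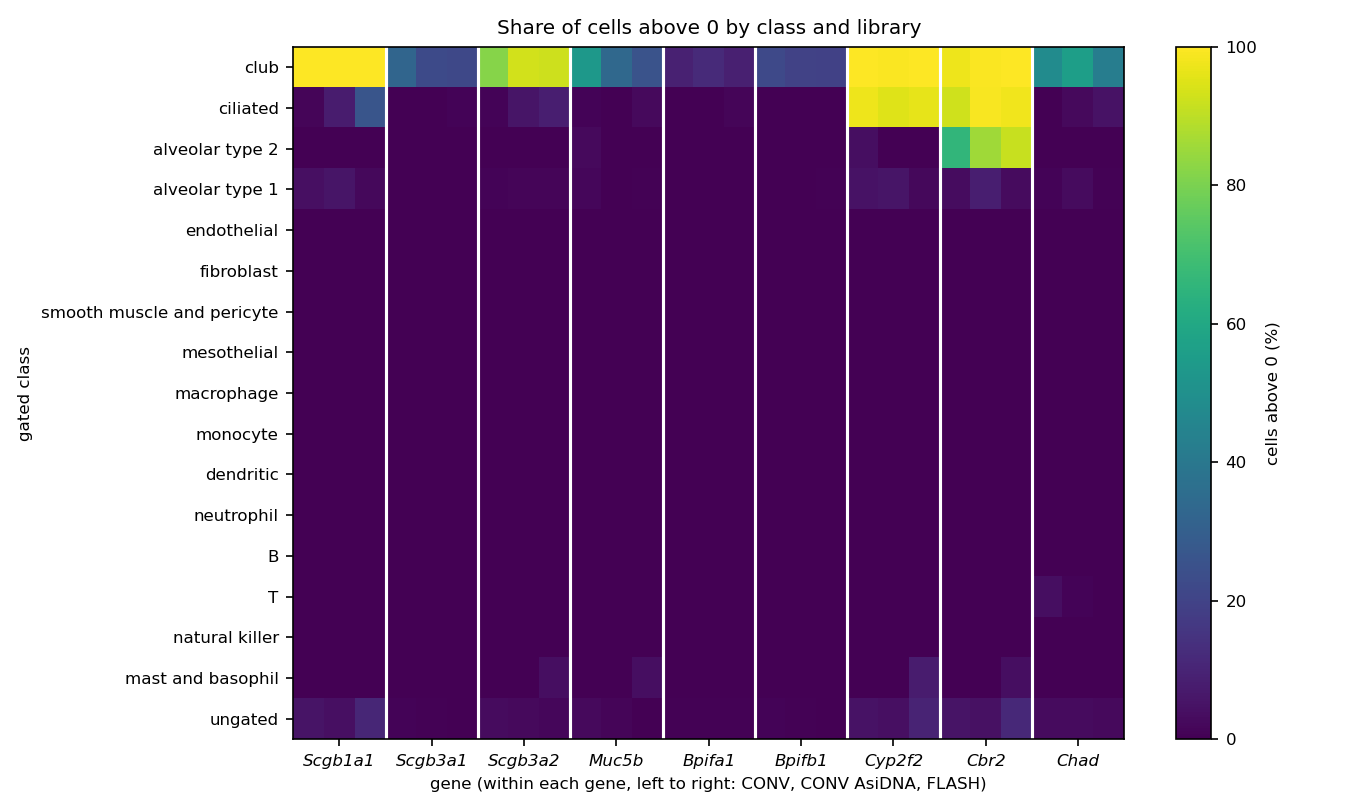
Percentage of cells above 0 (colour scale, 0 to 100%) for each gene in each gated class, with the 3 libraries side by side within a gene. Cyp2f2 filled club and ciliated cells, and Cbr2 also alveolar type 2 cells (66.0%, 85.9% and 91.6%). The other 7 genes were found mostly in club cells, apart from Scgb1a1 in ciliated cells and Chad in T cells of CONV.

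In ciliated cells, of which the gate found 301, 423 and 329, both enzymes were almost as frequent as in club cells. Cyp2f2 was above 0 in 97.3%, 95.0% and 96.4% of them with medians of 15, 14 and 12 adjusted counts, and Cbr2 in 92.7%, 99.1% and 97.9% with medians of 23, 27 and 23. Their summed levels in ciliated cells were 3890, 4005 and 4282 adjusted CPM for Cyp2f2 and 6114, 7242 and 7206 for Cbr2. For each enzyme this was below its own level in club cells in every library.

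Scgb1a1 in ciliated cells differed between the libraries. It was above 0 in 4 of 301 cells of CONV (1.33%, 0.363 to 3.37), 32 of 423 of CONV AsiDNA (7.57%, 5.23 to 10.5) and 87 of 329 of FLASH (26.4%, 21.8 to 31.6), and the intervals did not overlap. The positive cells were of 2 kinds, separated here by a depth of 3000 adjusted counts that was chosen after the values were seen. In the deeper kind Scgb1a1 had medians of 3317 in 3 cells of CONV, 2712.5 in 32 cells of CONV AsiDNA and 2821 in 31 cells of FLASH. These cells held a median of 10 ciliated markers and of 5, 5.5 and 6 club markers, and Scgb3a2 was above 0 in 2, 24 and 26 of them. Their medians were 1171, 1435 and 1462 genes and 5826, 5700 and 5860 adjusted counts, where club cells had 588, 589 and 634 genes. The shallower kind made up 1, 0 and 56 cells. In FLASH these 56 cells held 41 to 1026 adjusted counts of Scgb1a1 with a median of 295, a median of 2000.5 adjusted counts and 628.5 genes in all, 5 ciliated markers and 1 club marker, and Scgb3a2 in 1 cell.

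Ciliated cells with Scgb1a1 at 0 held a median of 10 ciliated and 3 club markers, 4488 to 4525 adjusted counts and about 2330 genes (2341, 2329 and 2328). Among the deeper ciliated cells alone, Scgb1a1 was above 0 in 3 of 293 (1.02%, 0.212 to 2.96), 32 of 412 (7.77%, 5.37 to 10.8) and 31 of 264 (11.7%, 8.12 to 16.3). There the intervals of CONV AsiDNA and FLASH overlapped, and that of CONV lay below both. Of the shallower ciliated cells, 1 of 8, 0 of 11 and 56 of 65 were positive. A further 11, 10 and 20 cells with Scgb1a1 took no class. Their medians were 1458, 1765 and 190 adjusted counts of Scgb1a1 and 3969, 4183 and 1785 in all. The part of joined droplets, which carry the RNA of 2 cells, and of free RNA in either kind was not tested.

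**Figure D5:**
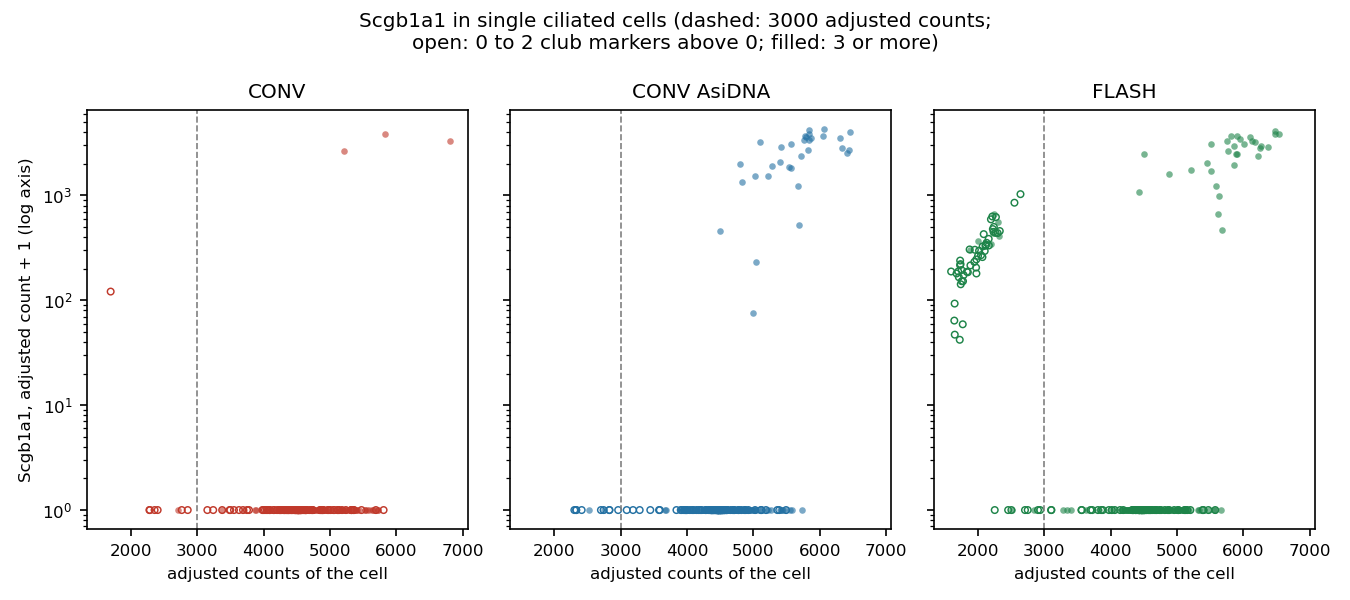
Scgb1a1 (adjusted count plus 1, log axis) against the adjusted counts of the cell for every ciliated cell of the 3 libraries, with open points for 0 to 2 club markers above 0 and filled points for 3 or more. FLASH holds 56 positive cells below 3000 adjusted counts, against 1 and 0, and 31 above, against 3 and 32.

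The other genes were rare in ciliated cells. Scgb3a2 was above 0 in 3, 24 and 27 of them and Chad in 1, 10 and 16. Muc5b was found in 3, 0 and 8, Scgb3a1 in 1, 0 and 3, Bpifa1 in 0, 0 and 4 (a value of 1 in each) and Bpifb1 in 1, 0 and 0.

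Alveolar type 2 cells, which make surfactant, numbered 291, 327 and 383. The 3 secretoglobins, both BPI fold genes and Chad were listed at 0 in all of them. Cbr2 was the exception and was above 0 in 192 cells of CONV (66.0%, 60.2 to 71.4), 281 of CONV AsiDNA (85.9%, 81.7 to 89.5) and 351 of FLASH (91.6%, 88.4 to 94.2). The median over all alveolar type 2 cells was 5, 10 and 11 adjusted counts and the summed level 1818, 2518 and 2503 adjusted CPM. CONV was the lowest by each measure, and at 1000 adjusted counts per cell the shares were 52.2%, 73.4% and 79.6%. The median adjusted counts of these cells were 4836, 4829 and 4798, but these totals were set by the adjustment and do not give the depth of reads, whose part in the difference was not tested. The difference in summed level between CONV and CONV AsiDNA was -0.47 on the log2 scale, under 2-fold. Cyp2f2 was above 0 in 11 alveolar type 2 cells of CONV (3.78%, values of 7 to 127) and Muc5b in 7 (values of 1 to 13), and both were listed at 0 in those of the other libraries.

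Chad had a second place of detection. Of its summed adjusted counts in CONV, 46.9% lay in club cells and 48.8% in classes outside the lung epithelium, and all 51 cells of the latter were T cells. Chad was above 0 in 51 of 1413 T cells of CONV (3.61%, 2.70 to 4.72), 10 of 1011 of CONV AsiDNA (0.989%, 0.475 to 1.81) and 4 of 1209 of FLASH (0.331%, 0.0902 to 0.845). Most values were 1 (34 of 51 cells in CONV), and the highest was 9. These T cells were set apart by genes examined after the values were seen: in CONV, Trdc, a constant region of the γδ T cell receptor, was above 0 in 38 of 51 T cells with Chad (74.5%, 60.4 to 85.7) and in 133 of 1362 without (9.77%, 8.24 to 11.5), and Tcrg-C1 in 42 of 51 and 209 of 1362. Cd4 and Cd8a, markers of the other T cells, were above 0 in 1 and 0 of the 51, and in 285 and 272 of the 1362. In CONV AsiDNA Trdc was in 0 of the 10 cells and Tcrg-C1 in 4, and in FLASH both were in 0 of the 4. Acsf2, inside which Chad lies, was rare in T cells with Chad at 0 too (14 of 1362, 16 of 1001 and 1 of 1205), so its absence from those with Chad says little, and reads shared between the overlapping genes were not tested for.

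Genes of the same functions were counted from further lists in the club cells. Of 8 other mucins 7 were measured and 4 had enough counts (Muc1, Muc4, Muc5ac and Muc20), and none was past 2-fold in any pair, where 9.48%, 19.8% and 11.8% of all genes were called. With equal weight for each cell 1 was higher in CONV than in FLASH, beside 21.1% of all genes called. Without the cells of a second list 1 was higher in CONV than in CONV AsiDNA, beside 10.7%. The membrane mucin Muc1, given as the most frequent of them, was at 493, 399 and 252 adjusted CPM and above 0 in 89.6%, 82.2% and 70.5% of club cells. Of 12 other BPI fold genes 3 were measured, and none had enough counts to enter a comparison. All 4 genes of a list shared with alveolar type 2 cells (the surfactant genes Sftpa1, Sftpb and Sftpd, and Cxcl15) stayed within 2-fold in each pair. The shares of all genes were the same as above. Scaled without the 9 genes, 1 of the 4 was higher in CONV AsiDNA than in FLASH, beside 18.7% of all genes called. With 4 genes in each of these lists, 0 called is near the share of all genes.

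Of the 18 other enzymes of xenobiotic metabolism, several were higher in FLASH than in both other libraries. Of 16 with enough counts, 1 was at least 2-fold higher and none lower in CONV than in CONV AsiDNA, 1 higher and 6 lower in CONV than in FLASH, and none higher and 5 lower in CONV AsiDNA than in FLASH. Cbr3, a carbonyl reductase like Cbr2, was at 71.4, 61.9 and 354 adjusted CPM and above 0 in 28.6%, 27.4% and 78.2% of club cells. Cbr1 stood at 102, 74.1 and 227. The glutathione transferases Gstm1 (357, 526 and 1370) and Gsta3 (436, 539 and 1125) and the retinal dehydrogenase Aldh1a1 (886, 1661 and 2432) were also highest in FLASH. Cyp2b10, a cytochrome P450, ran against them with 162, 61.9 and 37.0. Cbr2 and Cyp2f2, the enzymes among the 9, did not pass 2-fold in any of these comparisons. Over all genes 9.48%, 19.8% and 11.8% were called in these pairs, with 178 higher and 106 lower in CONV than in FLASH and 148 higher and 87 lower in CONV AsiDNA than in FLASH. Under 3 other scalings the numbers against FLASH were the same. Scaled without the 9 genes, 25.2% of all genes were called for CONV against FLASH and 18.7% for CONV AsiDNA against FLASH. Scaled by the median gene ratio these shares were 18.9% and 10.9%, and with equal weight for each cell 21.1% and 13.3%. Without the club cells of a second list the numbers against FLASH were 1 and 5 for CONV and 0 and 6 for CONV AsiDNA. The shares of all genes were then 19.75% and 13.0%. None of the enzymes was past 2-fold between CONV and CONV AsiDNA, where 10.7% of all genes were called. Cbr1 (CONV to FLASH, -0.96 in place of -1.08) and Cyp2b10 (CONV to CONV AsiDNA, 0.88 in place of 1.26) came within 2-fold. Scaled without the 9 genes, 1 enzyme became lower in CONV than in CONV AsiDNA (Aldh1a1, a log2 ratio of -1.04 in place of -0.90). In that setting 15.1% of all genes were called for this pair.

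Among 9 of 12 genes of airway defence with enough counts, 3 were at least 2-fold higher and none lower in CONV than in CONV AsiDNA, 3 higher and 1 lower in CONV than in FLASH, and 2 higher and 1 lower in CONV AsiDNA than in FLASH, beside the same 9.48%, 19.8% and 11.8% of all genes called in either direction. Scaled without the 9 genes, the first numbers were 1 higher and 1 lower, beside 15.1% of all genes called. The log2 ratio of Pigr was then 0.92 in place of 1.05. With equal weight for each cell the numbers were 2 and 0, 3 and 1, and 2 and 0, beside 9.76%, 21.1% and 13.3% of all genes. Without the cells of a second list they were 2 and 0, 3 and 2, and 2 and 2, beside 10.7%, 19.75% and 13.0%. Pigr, the receptor that carries immunoglobulin A across the epithelium, was at 1605, 770 and 627 adjusted CPM, and Ltf, which encodes the iron-binding lactoferrin, at 1245, 1346 and 236. Among 10 of 13 regulators of secretory cells with enough counts, the numbers higher and lower were 1 and 1, 3 and 1, and 2 and 0 in the same order, against 9.48%, 19.8% and 11.8% of all genes in either direction. Scaled without the 9 genes the numbers were 1 and 2, 3 and 2, and 2 and 0, beside 15.1%, 25.2% and 18.7% of all genes. Foxa2 (CONV to CONV AsiDNA, -1.25 in place of -0.97) and Sox2 (CONV to FLASH, -1.07 in place of -0.88) then passed 2-fold. Without the cells of a second list the numbers were 1 and 2, 3 and 2, and 1 and 0, beside 10.7%, 19.75% and 13.0% of all genes. With equal weight for each cell the numbers for CONV against FLASH were 3 and 2, beside 21.1% of all genes. Scaled by the median gene ratio those for CONV AsiDNA against FLASH were 1 and 0, beside 10.9%. Cebpd, a C/EBP factor of the acute-phase response, was at 357, 124 and 41.7 adjusted CPM and above 0 in 67.5%, 29.9% and 16.7% of club cells. Elf3 (152, 81.3 and 57.8) was highest in CONV, and Foxa2 (26.2, 60.7 and 74.0) and Sox2 (35.7, 91.0 and 74.0) were lowest there.

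The genes most like each of the 9, leaving out the 9 themselves and the gate markers, were sought over the 48 combinations of 16 classes and 3 libraries, as Pearson correlation of log2(adjusted CPM + 10). They were Kcnk2 (0.95), Shh and Gpx2 for Scgb1a1, Kcnk2 (0.95), Slc16a11 and Lrrc26 for Scgb3a2, and Gpx2 (0.96), Kcnk2 and Tspan1 for Cyp2f2. For Scgb3a1 they were Acsm1 (0.97), Wdr72 and Tff2, for Muc5b Tff2 (0.97), Itprid1 and Gm37245, for Bpifb1 Wdr72 (1.00), Clca1 and Atp6v1b1, and for Bpifa1 Gp2 (1.00), Clca1 and Ern2. Cbr2 was most like Wfdc2 (0.99), Cldn7 and Myo5c, and Chad most like Aldh3a1 (0.96), Lrrc26 and Muc5ac. Among the 9 themselves, Scgb1a1 had 0.97 with Scgb3a2 and 0.95 with Cyp2f2, and Bpifa1 had 0.99 with Bpifb1. Scgb1a1, Scgb3a2 and Cyp2f2 shared Kcnk2, while Scgb3a1 shared Wdr72 with Bpifb1 and Tff2 with Muc5b. Combinations of 1 class share their cell type, so these values describe where genes were found and are no independent points.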

How the data were processed

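Single-cell libraries of 3 irradiated mouse lungs were used, each mapped to its group by its label. Cell Ranger 6.0.0 and mm10 are named in the submitters' processing notes. The authors deposited natural log values, each the logarithm of a whole number plus 1; the logarithm was undone exactly. The totals per cell have a narrow range (1432 to 8462), so these adjusted counts are no raw UMI counts, a 0 may result from the adjustment, and neither count models nor counting intervals were used, although the planned comparison allowed for raw counts. The step that adjusted them was not given in the sources used here.

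Cells with at least 200 genes above 0 and at most 20% mitochondrial share were kept, which removed 3 of 19622. A cell took the class of the list (16 lists of 10 markers) with the most genes above 0, if at least 3 and more than in any other list; 643 cells took none. No doublet caller was used; cells with 3 markers of a second list were counted and left out as an alternative. CPM were taken over summed cells, with 10 added for ratios. Named genes were the 9, up to 6 per further list past 2-fold with 20% or more of club cells above 0, and the 3 most alike. The genes and lists were chosen with earlier results of these data known. The ratio calculation was tested on simulated data. Python 3.11.15, numpy 2.4.6 and scipy 1.17.1 were used. A further 4 tables were not used: 1 holds 12 columns of per-sample values that match no sample described here, and 3 hold fold changes and p-values of comparisons made by the authors. Alternatives were another marker minimum, other filters, other scalings, another constant, thinning, a gate by Scgb1a1 and the removal of doubtful cells.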

Additional observations from a re-analysis of the deposited data

How the results depend on the processing

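Of 351 log2 ratios of the 9 genes under alternatives, 344 moved by less than 1.5-fold. In 24 the sign changed, of which 23 belong to values within 2-fold and 1 to a value past it (Bpifa1 for CONV against FLASH). Without cells carrying 3 markers of a second list, the numbers of the 9 past 2-fold were 3 for CONV against CONV AsiDNA (Scgb3a1 1.40, Muc5b 1.54, Bpifa1 -1.57) and 0 for CONV against FLASH, where Bpifa1 turned to -0.32, beside 10.7% and 19.75% of all genes called. For CONV against FLASH the number was 1 with at least 500 genes per cell, beside 23.3% of all genes called. It was 1 when scaled without the 9 genes, beside 25.2%, and 1 when scaled by the median gene ratio, beside 18.9%. This median ratio was 0.11 on the log2 scale for CONV AsiDNA over FLASH. Without the highest cell of each library the number for CONV against FLASH was 1. The share of all genes is not given for that setting, and it was 19.8% with every club cell kept. With at least 500 genes per cell the club cells numbered 44 in CONV and 94 in CONV AsiDNA, and the 9 genes took 55.2% and 61.9% of their adjusted counts. The cause was not tested. Ciliated cells with Scgb1a1 numbered 31 in FLASH without cells below 3000 adjusted counts, and 1, 0 and 49 without cells holding 3 or more club markers. The latter filter also removed 179 of 297, 237 of 391 and 150 of 242 ciliated cells with Scgb1a1 at 0. Alveolar type 2 cells with Cbr2 were 52.2%, 73.4% and 79.6% when thinned to 1000, and 87.0% in FLASH without cells of a second list. Removal of the highest or the shallow cells, the scalings of the further lists, and the alternatives for ciliated and alveolar type 2 cells, were chosen after seeing the data. Of 243 shares of club cells under alternatives, 26 left the interval of the value reported, mostly Chad and Muc5b when thinned or when a value of 5 was asked for. No paired analysis was possible because each group holds 1 library. The depth of raw reads per cell is unknown, and its part in differences in low values, such as those of Chad and Muc5b, was not tested.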
